A study of Mus musculus with 11 samples.

Results

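The γ and δ chains of the T cell receptor are encoded by separate variable (V), diversity (D, δ only), joining (J) and constant (C) segments. All genes whose symbol starts with Tcrg-, Trgv, Trgj, Trgc, Trdv, Trdd, Trdj or Trdc and whose biotype is a T cell receptor segment in the GENCODE M21 annotation of GRCm38 were taken, which gave 26 of the 35975 genes in the tables. They are 4 γ C, 7 γ V, 4 γ J, 1 δ C, 6 δ V, 2 δ D and 2 δ J genes. The γ genes lie on chromosome 13 (19178024 to 19352756) and the δ genes on chromosome 14 (53881612 to 54149294), inside the α locus.

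RNA of flow-sorted thymocytes of C57BL/6J mice was sequenced at 2 stages, DN2 and DN3, the CD4- CD8- stages that precede expression of an αβ receptor. The groups are DN2 WT (3 libraries), DN2 Arpp21-/- (labelled Arpp21 KO, 2 libraries), DN3 WT (3 libraries) and DN3 Arpp21-/- (3 libraries). Arpp21 is an RNA-binding protein, and the knockout is a germline deletion of an exon by genome editing, present in all cells of the mouse and described for 1 line. The study's methods give mice of both sexes and varied ages, matched between genotypes, and no age per library. The labels do not say whether the libraries come from separate mice, so p-values measure the spread between these libraries, which may be technical. Whether the sort removed cells with a γδ receptor on their surface is not given in the sources used here.

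In thymocyte precursors the γ, δ and β loci are rearranged by the RAG1 and RAG2 recombinase before the α locus, and cells with a productive γδ receptor can leave the αβ path. Unrearranged segments are also transcribed once their chromatin opens, so RNA of a V, J or C segment can come from germline as well as from rearranged genes. After joining, RNA of a V segment is spliced to a C segment. Counts per gene do not separate germline from rearranged RNA. The mouse γ locus is built of clusters that each hold their own V, J and C segments. Tcrg-V4, Tcrg-V5, Tcrg-V6 and Tcrg-V7 lie with Trgj1 and Tcrg-C1, Tcrg-V3 with Trgj3 and Tcrg-C3, Trgv2 with Trgj2 and Tcrg-C2, and Tcrg-V1 with Trgj4 and Tcrg-C4.

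The deposited values depend on how distinct these segments are, because kallisto assigns read pairs to transcripts through stretches of 31 bases. The sequences below, read from the GENCODE M21 transcripts of GRCm38 from 5′ to 3′, are shown because they limit which members can be told apart. The first set gives the last 30 bases of 4 γ V genes, with the codon of the conserved cysteine that starts the most variable loop of the chain in capitals. Tcrg-V1 and Tcrg-V3 end in the same 30 bases, Trgv2 shares 28 of them, and Tcrg-V4 shares 19. They lie at chr13:19340425-19340454 (plus strand), chr13:19243272-19243301 (plus strand), chr13:19336573-19336602 (minus strand) and chr13:19185477-19185506 (plus strand), in the order shown.
Tcrg-V1: agccacctactacTGTgcagtctggataaa
Tcrg-V3: agccacctactacTGTgcagtctggataaa
Trgv2: agccacctactacTGTgcagtctggatgag
Tcrg-V4: agctatctactacTGTtcctacggctaaag

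The γ J segments are shown for the same reason, by their first 30 bases, with the bases of Trgj2 and Trgj3 that differ from Trgj1 in capitals. Over all 60 bases Trgj2 differs from Trgj1 at 4 places (A8G, T11C, T38A and T59C, counted from 1 at the 5′ end of the segment, with the base of Trgj1 first) and Trgj3 at 6 places. The stretches shown lie at chr13:19210343-19210372 (plus strand), chr13:19311275-19311304 (minus strand), chr13:19257117-19257146 (plus strand) and chr13:19342152-19342181 (plus strand).
Trgj1: atagctcaggttttcacaaggtatttgcag
Trgj2: atagctcGggCtttcacaaggtatttgcag
Trgj3: atagTtGGgACtttcacaaggtatttgcag
Trgj4: tcaggcacatcatgggtcaagatatttgcc

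The whole δ D segments are shown because their length alone sets their value, and lie at chr14:54113468-54113478 (plus strand) and chr14:54122226-54122241 (plus strand).
Trdd1: atggcatatca
Trdd2: atcggagggatacgag
At 11 and 16 bases they hold no stretch of 31 bases, so both are listed at 0 in all 11 libraries by construction, and nothing about their use can be read from that.

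Of the 31-base stretches of Tcrg-C1, Tcrg-C2 and Tcrg-C3, 51.0%, 45.9% and 58.6% also occur in another of these genes, against none of Tcrg-C4. Among V genes the shared part was 44.2% for Tcrg-V1, 36.5% for Tcrg-V3 and 20.2% for Trgv2. It was 63.9% for Trdv2-1 and 60.2% for Trdv2-2, which share that part with each other. Of the stretches of Trdv2-1 and Trdv2-2, 47.1% and 40.9% also occur in Gm43647, and these overlap with that part. Trgj1 and Trgj3 share 46.7% of theirs. The split of counts within these sets is therefore uncertain. Trdv5 lies on the minus strand at chr14:54148662-54149294 and overlaps the end of Trdc, and the library kit does not mark strand, so the counts of Trdv5 and Trdc are uncertain as well. Levels are given as CPM (estimated counts scaled per library with TMM factors to the usual common total), which grow with the length of a transcript, and log2 changes with their standard errors (SE) were fitted over 13780 genes in all 11 libraries by edgeR's quasi-likelihood test, two-sided, where a call means a Benjamini-Hochberg adjusted p under 0.05. Of the 26 members 20 passed the filter on low counts and were tested, and 19 reached 10 estimated counts in at least 2 libraries and are described singly.

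The libraries held 14531762 to 63109504 estimated counts, of which the 26 members took 0.173% to 0.473%. A count of 0 allows up to 3 counts, which is 0.0802 to 0.242 CPM per library for counting error alone. DN2 Arpp21-/- replicate 2 and DN3 Arpp21-/- replicate 3 stood apart, with TMM factors of 0.599 and 0.861 against 1.03 to 1.11, and short transcripts were higher in them. Over the 416 tested genes shorter than 500 bases the median log2 difference of Arpp21-/- from WT was 0.92 in DN2 and 0.19 in DN3, and all V and J members are shorter than that. Arpp21 itself, summed over whole transcripts, was in DN2 at 183, 125 and 136 CPM in WT against 86.9 and 28.5 CPM in Arpp21-/- libraries, in DN3 at 386, 336 and 312 against 335, 221 and 142 CPM, and so overlapped between genotypes in DN3, and such a sum is no measure of a deleted exon. Stage markers went with the labels only in part. Ptcra, the pre-T cell receptor α chain, had 2.96, 1.000 and 1.53 CPM in DN2 WT against 436, 393 and 365 in DN3 WT. Kit had 494, 446 and 512 against 97.3, 60.1 and 90.6. Of the 6 DN3 markers listed (Ptcra, Rag1, Rag2, Notch3, Hes1 and Il2ra) 4 rose between the WT stages and none fell. Of the 5 DN2 markers (Kit, Cd44, Gata3, Tcf7 and Mpzl2) only 1 fell and none rose, with a median log2 change of 0.091.

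From DN2 to DN3 in WT thymocytes, the CPM of 5 γ V and 3 δ V genes rose, while those of Tcrg-C3, Trgj1, Trgj2 and Trgj3 fell. Summed over the 7 γ V genes DN3 WT libraries had 405 ± 23.7 CPM (SD, n = 3) against 17.7 ± 0.474 CPM (SD, n = 3) in DN2 WT, 22.8-fold apart. In the same order of stages the sum of the 4 γ C genes was 1893 ± 124 CPM (SD, n = 3) against 3009 ± 178 CPM (SD, n = 3), and that of the 4 γ J genes 38.4 ± 3.36 CPM (SD, n = 3) against 111 ± 8.77 CPM (SD, n = 3). Of the 20 members tested, 8 rose and 4 fell, where 1.86% of all genes tested were called higher and 2.22% lower. The 8 that rose were 5 γ V and 3 δ V genes, and the 4 that fell were 1 γ C and 3 γ J genes. The median log2 change was 4.47 over the 7 γ V genes, -1.78 over the 4 γ J genes and -0.76 over the 4 γ C genes, beside 0.010 over all genes tested. With the replicate number as a block, which pairs the WT libraries of the 2 stages, 10 of the 12 stayed called (all but Tcrg-V6 and Tcrg-V7), and with genotype and number together as a block, added after seeing the data and leaving 3 residual degrees of freedom, 4 stayed called, Trgv2, Tcrg-V1, Tcrg-V4 and Tcrg-C3. Leaving out DN2 WT replicate 1 or 3 left 6 calls, leaving out DN3 WT replicate 1 left 5, and leaving out DN3 WT replicate 2 or 3 left 4, Trgv2, Tcrg-V1, Tcrg-V4 and Trdv1. The share of all genes called was lower as well, 2.84% and 2.36% without DN2 WT replicates 1 and 3. Without DN3 WT replicates 1, 2 and 3 it was 2.05%, 1.88% and 1.78%.

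**Figure D1:**
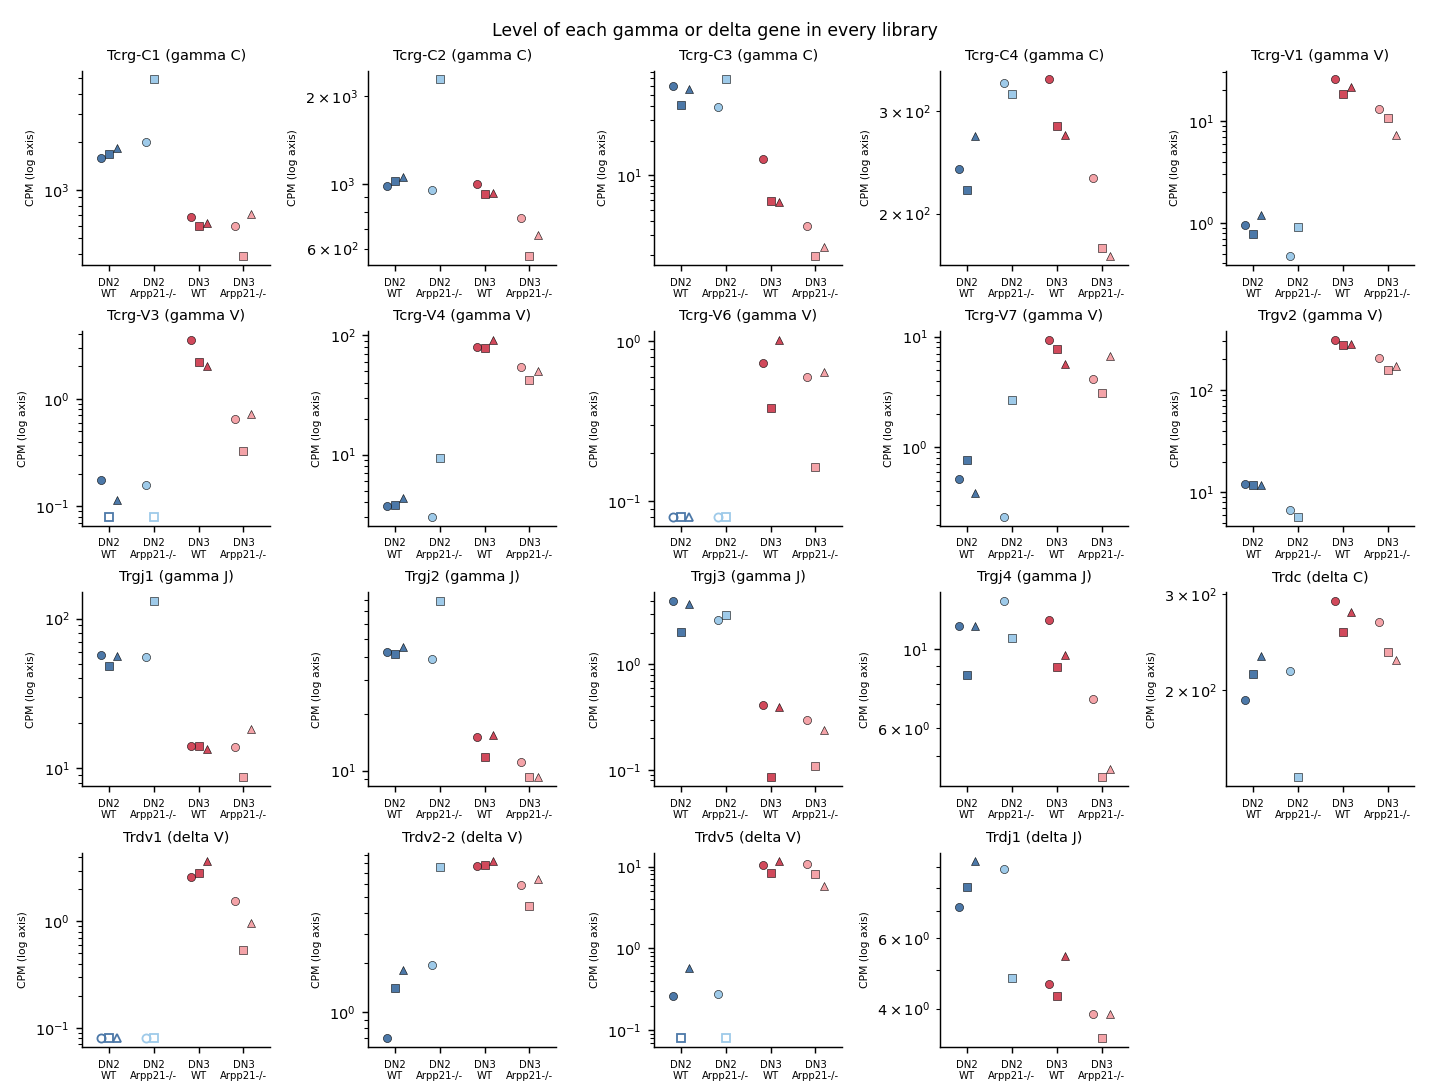
Level in CPM (log axis) of the 19 members described singly, 1 panel each, in DN2 WT, DN2 Arpp21-/-, DN3 WT and DN3 Arpp21-/- libraries. Circles, squares and triangles are replicates 1, 2 and 3, and open symbols at the bottom mark libraries under 0.0802 CPM. Trgv2 and Tcrg-V4 are far higher in DN3 than in DN2, Trgj1 and Trgj2 are lower, and the square of DN2 Arpp21-/- lies far from the circle in Tcrg-C1 and Tcrg-C2.

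Tcrg-C1, the constant segment of the cluster with most V genes, had 1575, 1686 and 1819.5 CPM in DN2 WT and 678, 598 and 622 in DN3 WT replicates 1, 2 and 3. The groups did not overlap, but the log2 change of -1.42 (SE 0.351, adjusted p = 0.0532) missed the threshold. Tcrg-C2 had 982, 1023 and 1056 CPM in DN2 WT and 1003, 923 and 933 in DN3 WT, with overlapping groups and a log2 change of -0.099 (SE 0.306, adjusted p = 1). Tcrg-C3 had 60.1, 40.7 and 56.6 CPM in DN2 WT and 13.9, 5.88 and 5.84 in DN3 WT. It fell 6.15-fold by the means, with a log2 change of -2.62 (SE 0.443, adjusted p = 0.00884), and was not called without DN3 WT replicate 2 or 3. Tcrg-C4, which shares no stretch with the others, had 238, 219 and 272 CPM in DN2 WT and 340.1, 283 and 273 in DN3 WT and a log2 change of 0.30 (SE 0.222, adjusted p = 0.744). In DN2 WT libraries Tcrg-C1 was the highest per length, with 2929.7 ± 202 TPM (SD, n = 3) against 1789 ± 89.8 TPM (SD, n = 3) of Tcrg-C2, and in DN3 WT the order was the opposite, with 1199.8 ± 97.0 TPM (SD, n = 3) and 1829 ± 109 TPM (SD, n = 3). TPM correct counts for the effective length of the transcript. As a share of the counts of the 4 γ C genes, Tcrg-C1 held 56.2 ± 0.939% (SD, n = 3) in DN2 WT and 33.4 ± 0.455% (SD, n = 3) in DN3 WT, and Tcrg-C4 held 8.07 ± 0.597% (SD, n = 3) and 15.7 ± 0.929% (SD, n = 3). The spread between the WT libraries was small beside both differences.

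Among the V genes Trgv2 was the most abundant in every WT library. It had 12.2, 11.7 and 11.8 CPM in DN2 WT and 309, 275 and 284 in DN3 WT replicates, a 24.3-fold difference with a log2 change of 4.60 (SE 0.239, adjusted p = 1.74e-05). It lies on the minus strand at chr13:19336573-19337167, as does Tcrg-C2, the C gene of its cluster, at chr13:19304649-19307551. Tcrg-V4, which in the adult thymus is joined mainly to Trgj1, had 3.75, 3.77 and 4.37 CPM in DN2 WT and 80.3, 77.4 and 90.8 in DN3 WT, with a log2 change of 4.38 (SE 0.415, adjusted p = 0.000467). Tcrg-V1, the V gene of the Tcrg-C4 cluster, had 0.958, 0.772 and 1.19 CPM in DN2 WT against 25.6, 18.2 and 21.4 CPM at DN3, with a log2 change of 4.47 (SE 0.425, adjusted p = 0.000467). These 3 were called also with each library left out in turn.

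Tcrg-V7, whose product is common in T cells of the gut lining, had 0.523, 0.772 and 0.383 CPM in DN2 WT and 9.31, 7.76 and 5.70 in DN3 WT, a log2 change of 3.75 (SE 0.797, adjusted p = 0.027). Tcrg-V3 had 0.174, 0 and 0.115 CPM in DN2 WT against 3.51, 2.22 and 2.03 CPM at DN3, and its log2 change of 4.66 (SE 1.16, adjusted p = 0.055) missed the threshold. Tcrg-V5 and Tcrg-V6, the V genes of γδ cells that arise in the fetal thymus and populate skin and mucosa, stayed low. Tcrg-V6 had 1 count over the 3 DN2 WT libraries and 48 over the DN3 WT libraries, a ratio of 50.2 (exact 95% interval for counting error 8.58 to 2022) with an adjusted p of 0.0403 by edgeR. Tcrg-V5 reached 10 counts in 1 library and had at most 0.548 CPM, with a log2 change of 1.02 (SE 1.14, adjusted p = 0.918).

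The make-up of the γ V counts moved far less between the WT stages than their level. Trgv2 held 67.3 ± 2.06% (SD, n = 3) of them in DN2 WT and 71.4 ± 1.16% (SD, n = 3) in DN3 WT, Tcrg-V4 22.3 ± 1.53% (SD, n = 3) and 20.5 ± 1.85% (SD, n = 3), and Tcrg-V1 5.42 ± 1.09% (SD, n = 3) and 5.34 ± 0.592% (SD, n = 3). The share of Trgv2 was higher in every DN3 WT library than in any DN2 WT library, and those of Tcrg-V4 and Tcrg-V1 overlapped.

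**Figure D2:**
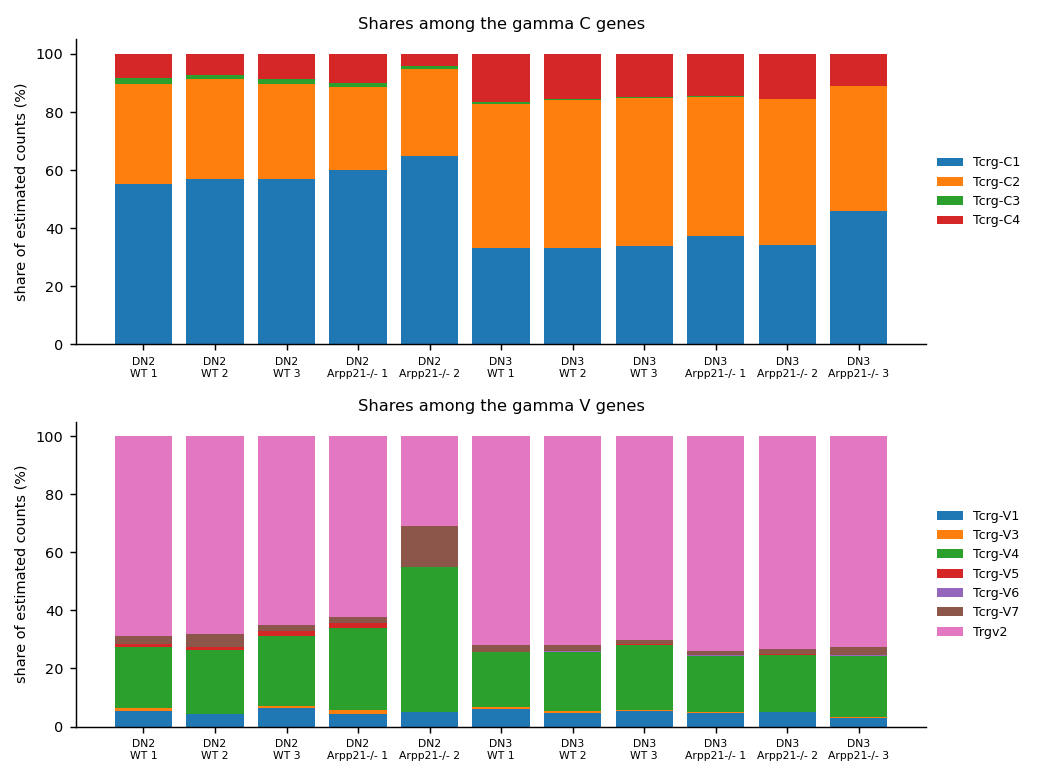
Share in percent of the estimated counts of the 4 γ C genes (upper panel) and of the 7 γ V genes (lower panel), 1 stacked bar per library. Tcrg-C1 takes more of the γ C counts in DN2 than in DN3 WT libraries, and Trgv2 takes most γ V counts in every library except DN2 Arpp21-/- replicate 2, where Tcrg-V4 takes most.

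Of the 4 γ J segments 3 fell. Trgj1 had 56.7, 48.4 and 56.0 CPM in DN2 WT and 14.0, 14.0 and 13.4 in DN3 WT, and fell with a log2 change of -1.96 (SE 0.374, adjusted p = 0.0159). Trgj2 had 42.6, 41.5 and 44.8 CPM in DN2 WT against 14.97, 11.8 and 15.5 CPM at DN3, and fell with one of -1.61 (SE 0.303, adjusted p = 0.015). Trgj3, which shares 46.7% of its stretches with Trgj1, had 4.01, 2.04 and 3.72 CPM in DN2 WT against 0.411, 0.0852 and 0.398 CPM at DN3 and fell with one of -3.43 (SE 0.696, adjusted p = 0.0217). Trgj4 of the Tcrg-C4 cluster had 11.6, 8.45 and 11.7 CPM in DN2 WT against 12.1, 8.91 and 9.64 CPM at DN3, overlapping groups and a log2 change of -0.049 (SE 0.328, adjusted p = 1). The γ J segments are 60 or 61 bases long, close to the length of the stretches that kallisto matches, so their levels rest on few positions. V, J and C segments were counted as separate transcripts, and how pairs that span joined segments were counted was not tested. A fall in J counts is therefore not shown to be a fall of all RNA that holds the segment. Relative to the C gene of the same cluster, Trgj2 had 4.34, 4.06 and 4.25 counts per 100 counts of Tcrg-C2 in DN2 WT and 1.49, 1.28 and 1.66 in DN3 WT. For Trgj1 per 100 counts of Tcrg-C1 the values were 3.597, 2.87 and 3.08 in DN2 WT against 2.06, 2.34 and 2.16 at DN3, a smaller difference.

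The V to C ratio within a library does not depend on the scaling between libraries, and it separated the stages completely. Trgv2 had 1.24, 1.15 and 1.12 counts per 100 counts of Tcrg-C2 in DN2 WT and 30.8, 29.8 and 30.4 in DN3 WT, a 25.9-fold difference of the means. For Tcrg-V1 per 100 counts of Tcrg-C4 the values were 0.400, 0.342 and 0.437 in DN2 WT against 7.52, 6.45 and 7.83 at DN3. For the 4 V genes of the Tcrg-C1 cluster together they were 0.282, 0.280 and 0.278 against 13.4, 14.4 and 15.7. Each of these clusters thus held far more V counts per C count in every DN3 WT library than in any DN2 WT library. A ratio of counts is not a ratio of molecules, because the segments differ in length.

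**Figure D3:**
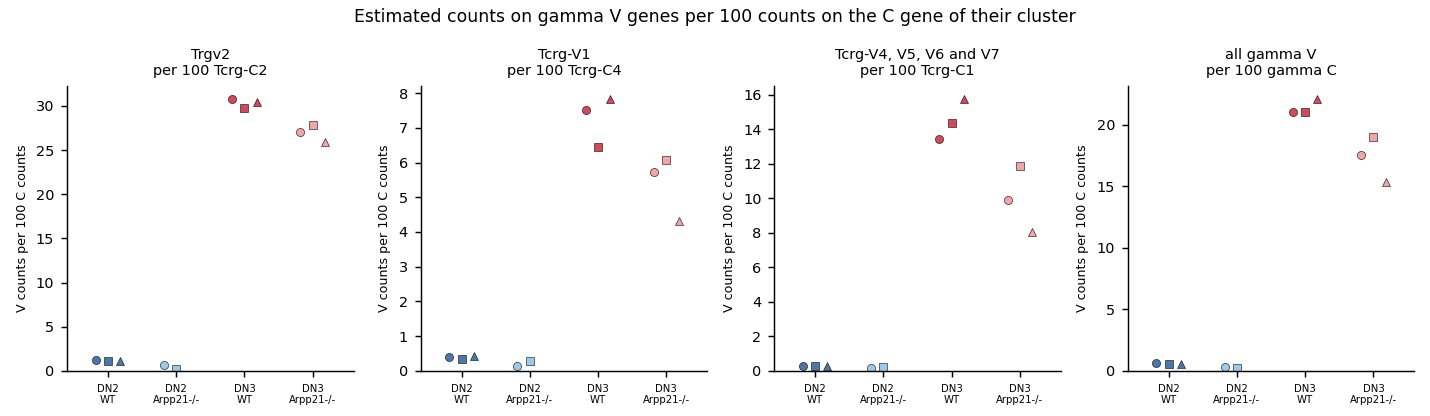
Estimated counts of γ V genes per 100 estimated counts of the C gene of their cluster (linear axis), for Trgv2, Tcrg-V1, the 4 V genes of the Tcrg-C1 cluster and all γ V against all γ C genes. Circles, squares and triangles are replicates 1, 2 and 3, DN2 libraries sit near 0 in each panel, and the 3 DN3 Arpp21-/- libraries lie below the 3 DN3 WT libraries.

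Trdc (chr14:54142851-54148868), the δ constant segment, had 192, 214 and 231 CPM in DN2 WT and 292, 256 and 278 in DN3 WT. All DN3 WT libraries were above all DN2 WT libraries, but the log2 change of 0.37 (SE 0.231, adjusted p = 0.612) was not called. Trdv1 was listed at 0 in all DN2 WT libraries and had 2.60, 2.86 and 3.67 CPM in DN3 WT. Against the limit of 3 counts over the DN2 WT group it was at least 72.1-fold higher in DN3 WT (adjusted p = 0.00498 by edgeR). Trdv2-2 had 0.697, 1.41 and 1.80 CPM in DN2 WT against 7.67, 7.80 and 8.22 CPM at DN3, with a log2 change of 2.59 (SE 0.564, adjusted p = 0.0302). Trdv5, the V segment placed downstream of Trdc in the opposite orientation, which joins by inversion, had 0.261, 0.0454 and 0.575 CPM in DN2 WT against 10.5, 8.396 and 11.5 CPM at DN3, with a log2 change of 5.06 (SE 0.997, adjusted p = 0.0189), which was 5.99 without DN2 WT replicate 3. Its counts per 100 of the overlapping Trdc were 0.139, 0.0216 and 0.251 in DN2 WT and 3.59, 3.28 and 4.14 in DN3 WT, higher in every DN3 WT library. Trdj1 had 7.19, 8.04 and 9.31 CPM in DN2 WT and 4.61, 4.30 and 5.39 in DN3 WT, with no overlap and a log2 change of -0.78 (SE 0.350, adjusted p = 0.371). Per 100 counts of Trdc it had 3.74, 3.76 and 4.03 in DN2 WT and 1.58, 1.68 and 1.94 in DN3 WT. Trdv2-1, Trdv4, Trdj2 and the pseudogene Trdv3 had at most 0.775 CPM in any library and were not tested.

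Several genes that act with the receptor rose as well. Of the 4 CD3 chains, which carry the signal of either receptor, 3 rose in WT and none fell, with Cd3d from 12.5 ± 6.00 CPM (SD, n = 3) to 622 ± 84.3 CPM (SD, n = 3). Rag1 and Rag2 rose, Rag1 from 9.81 ± 4.17 CPM (SD, n = 3) to 915 ± 53.7 CPM (SD, n = 3), and Dntt, the terminal transferase that adds bases at junctions, was not called. None of the 11 regulators of γ and δ locus opening (the interleukin 7 receptor and its kinases and STAT5 factors among them) was called, with a median log2 change of -0.25. Among 13 genes of the γδ lineage 10 were tested and 1 rose, Id3, an inhibitor of E proteins, from 12.1 ± 1.31 CPM (SD, n = 3) to 75.2 ± 2.96 CPM (SD, n = 3). Of the 10 Trav genes that can also join to δ segments 7 were tested and 4 rose (Trav13-4-dv7, Trav15-1-dv6-1, Trav15d-1-dv6d-1 and Trav21-dv12), the highest of them Trav15d-1-dv6d-1 with 0 CPM in each DN2 WT library and 3.92, 2.86 and 3.58 CPM in DN3 WT. Trac, the α constant gene, had 1.31, 3.54 and 1.49 CPM in DN2 WT against 5.57, 6.82 and 4.86 CPM at DN3 and was not called. In bulk RNA a change in the number of cells with a given transcript and a change of its level per cell cannot be told apart.

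Markers of mature γδ T cells were tested for 6 of 8 genes, of which none rose or fell between the WT stages. Their summed level was 81.6 to 211 CPM in DN2 WT and 149 to 294 CPM in DN3 WT, nearly all of it from 5830411N06Rik, Cd163l1 and Blk, while Zbtb16, Il23r and Ccr6 were at 0 in every DN3 WT library. Markers of NK and innate lymphoid cells summed to 26.0 to 47.1 CPM in DN2 WT and 177 to 225 CPM in DN3 WT, with Gzma called among the 3 of 6 that were tested and the other 5 at or under 1.02 CPM in DN3 WT. Myeloid markers summed to 114 to 159 CPM in DN2 WT and 29.9 to 36.8 CPM in DN3 WT, and 2 of 7 fell. Their part in the stage differences was not tested.

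In Arpp21-/- thymocytes the DN3 libraries also had far more V RNA than the DN2 libraries. Of the 20 members tested 5 rose and 5 fell, beside 1.39% of all genes called higher and 2.93% lower. Trgv2 rose by a log2 change of 4.85 (SE 0.290, adjusted p = 3.44e-05), Tcrg-V1 by 3.89 (SE 0.493, adjusted p = 0.00215) and Tcrg-V4 by 2.97 (SE 0.458, adjusted p = 0.00544). Trdv5 rose from 0.275 and 0 CPM in DN2 to 10.8, 8.06 and 5.81 CPM in DN3 Arpp21-/-, and Trdv1 had 1 count over the DN2 and 58 over the DN3 Arpp21-/- libraries, a ratio of 67.5 (exact 95% interval for counting error 11.6 to 2710). Tcrg-C1 fell with a log2 change of -2.61 (SE 0.387, adjusted p = 0.00448) and Tcrg-C3 with -4.34 (SE 0.4997, adjusted p = 0.00133), and Trgj1, Trgj2 and Trgj3 fell with log2 changes between -3.65 and -2.58. This comparison rests on only 2 DN2 libraries, 1 of which stood apart, and the fit has 1 spread for all groups. Short genes fell in it in general. The median log2 change was -0.74 under 500 bases, -0.81 for 500 to 1000 bases and 0.30 over 2000 bases. The part of length in the falls of the γ C and γ J genes was not tested. Tcrg-C1 had 1997 and 4907 CPM and Tcrg-C2 953 and 2286 CPM in DN2 Arpp21-/- replicates 1 and 2. Without replicate 2 of DN2 the log2 changes were 3.97 for Tcrg-V4, -1.86 for Tcrg-C1 and -2.06 for Trgj1, and Trdv1 was not called. Trdv1 also lost its call without any 1 of the DN3 libraries, and Trdv5 without any 1 of them but DN3 Arpp21-/- replicate 3. Trgj3 lost its call without any 1 of the DN3 Arpp21-/- libraries, where it had 7.04, 2.01 and 3.03 estimated counts. The V to C ratio of all γ genes was 0.322 and 0.247 counts per 100 in DN2 Arpp21-/- and 17.5, 19.0 and 15.4 in DN3 Arpp21-/- replicates. With genotype and number together as a block 3 members were called, beside 0.871% of all genes. With limma voom and sample quality weights it was 4, beside 1.02% of all genes. Without DN2 Arpp21-/- replicate 1 it was 15, where 46.1% of all genes were called.

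**Figure D4:**
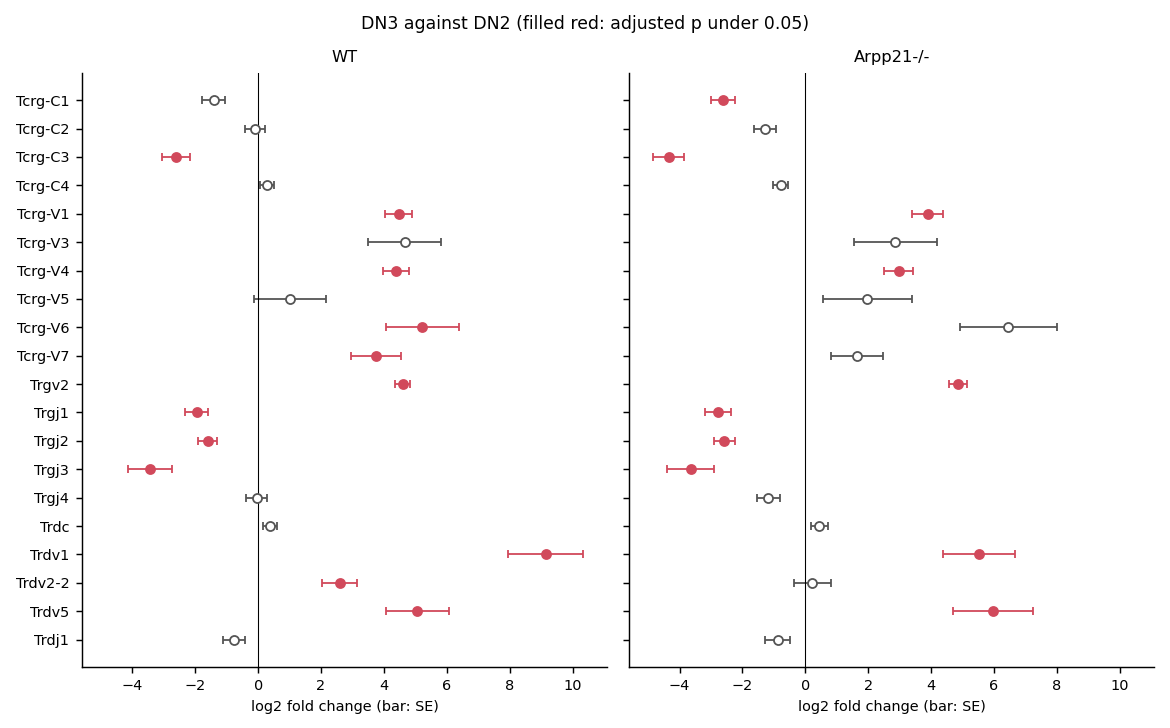
log2 change of DN3 against DN2 in WT (left) and Arpp21-/- libraries (right) for the 20 members tested. Points are edgeR estimates, bars their SE, and filled red points passed an adjusted p of 0.05. All 7 γ V genes lie right of 0 in both genotypes, and Trgj1, Trgj2 and Trgj3 lie left of it.

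Between the genotypes in DN3, no member was called by edgeR's quasi-likelihood test, and 5 of the 20 had an unadjusted p under 0.05. Over all genes 0.00726% were called (1 gene, not a member) and 214 had an unadjusted p under 0.05. DESeq2 called no member either. The log2 change of Arpp21-/- against WT was negative for all 20, from -2.19 to -0.022 with a median of -0.56, where the median of all genes tested was -0.0048. Trgj1 turned positive with DESeq2's scaling, and Trgj1, Tcrg-V5, Tcrg-C1, Trdc or Trdv5 did so in some other alternatives. In 12 of the 20 all 3 Arpp21-/- libraries lay under the lowest WT library, beside 5.57% of all genes tested, and in none were all 3 above WT, which held for 4.97% of all genes. Without DN3 Arpp21-/- replicate 3, the library that stood apart, it was 14 of 20 beside 10.9% of all genes, and by TPM 12 of 20 beside 8.32%. limma voom with sample quality weights called 7 members lower (Trgv2, Tcrg-V1, Tcrg-V3, Tcrg-V4, Tcrg-C2, Tcrg-C4 and Trdv1), beside 0.646% of all genes called lower by that fit.

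Trgv2 had 207, 157 and 173 CPM in DN3 Arpp21-/- replicates 1, 2 and 3 against 309, 275 and 284 CPM in WT, with means of 179 ± 25.2 CPM (SD, n = 3) against 289 ± 17.6 CPM (SD, n = 3). The groups were well apart, with a log2 change of -0.69 (SE 0.206) and an unadjusted p of 0.00727 by edgeR, which adjustment raised to 1. Over the alternatives its log2 change was between -0.90 and -0.51. Tcrg-V4 had 53.8, 42.1 and 49.8 CPM in DN3 Arpp21-/- (log2 change -0.77, SE 0.362), Tcrg-V1 13.2, 10.6 and 7.34 CPM (-1.06, SE 0.368) and Tcrg-V3 0.644, 0.327 and 0.726 CPM (-2.19, SE 1.02). All of these lay under the lowest WT library. Summed γ V RNA was 244 ± 33.1 CPM (SD, n = 3) in DN3 Arpp21-/-, 60.3% of the DN3 WT mean. Tcrg-V7 had 4.12, 3.10 and 6.70 CPM, with 1 library inside the range of WT.

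Of the C genes, Tcrg-C4 had 230.5, 175 and 169 CPM in DN3 Arpp21-/- (log2 change -0.64, SE 0.223), Tcrg-C2 765, 566 and 667 CPM (-0.52, SE 0.307) and Tcrg-C3 3.61, 1.96 and 2.34 CPM (-1.69, SE 0.437), each under every WT library. Tcrg-C1 had 594, 387 and 712 CPM and overlapped WT (-0.17, SE 0.344). Summed γ C RNA was 1424 ± 256 CPM (SD, n = 3), 75.2% of the DN3 WT mean. Of the J genes, Trgj4 had 7.26, 4.36 and 4.60 CPM (-0.92, SE 0.333) and Trgj2 11.1, 9.20 and 9.28 CPM (-0.51, SE 0.298), and Trgj1 with 13.9, 8.66 and 18.3 and Trgj3 with 0.301, 0.109 and 0.242 CPM overlapped WT. In the δ locus Trdv1 had 1.55, 0.544 and 0.968 CPM, Trdv2-2 5.93, 4.41 and 6.45 CPM and Trdj1 3.87, 3.38 and 3.87 CPM, all under every WT library, with log2 changes of -1.57 (SE 0.730), -0.50 (SE 0.530) and -0.36 (SE 0.352). Trdc (267, 235 and 228 CPM) and Trdv5 (10.8, 8.06 and 5.81 CPM) overlapped WT.

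The V to C ratios of DN3 Arpp21-/- libraries were lower too. All V genes are shorter than 500 bases, while Tcrg-C1, Tcrg-C2 and Tcrg-C4 are longer. In DN3 the median log2 difference of Arpp21-/- from WT was 0.19 over genes under 500 bases. Over genes of 500 to 1000 bases it was 0.35. The part of length in the lower ratios was not tested. Trgv2 had 27.0, 27.8 and 25.9 counts per 100 of Tcrg-C2 in replicates 1, 2 and 3, all under the lowest WT value of 29.8. For Tcrg-V1 per 100 of Tcrg-C4 the values were 5.74, 6.08 and 4.33, and for the V genes of the Tcrg-C1 cluster per 100 of Tcrg-C1 they were 9.92, 11.9 and 8.03, again under every WT library. Over all γ genes the ratio was 21.4 ± 0.596 counts per 100 (SD, n = 3) in WT and 17.3 ± 1.82 counts per 100 (SD, n = 3) in Arpp21-/-. For Tcrg-V3 per 100 of Tcrg-C3, which share stretches with other members, the genotypes overlapped. The shares of Trgv2 and Tcrg-V4 among the γ V counts were 73.4 ± 0.682% (SD, n = 3) and 19.9 ± 0.862% (SD, n = 3) in DN3 Arpp21-/-. Those of Trgv2 lay just above the WT libraries and those of Tcrg-V4 overlapped them. No test was made of these ratios and shares, and 3 libraries against 3 cannot give an exact two-sided permutation p under 0.1.

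**Figure D5:**
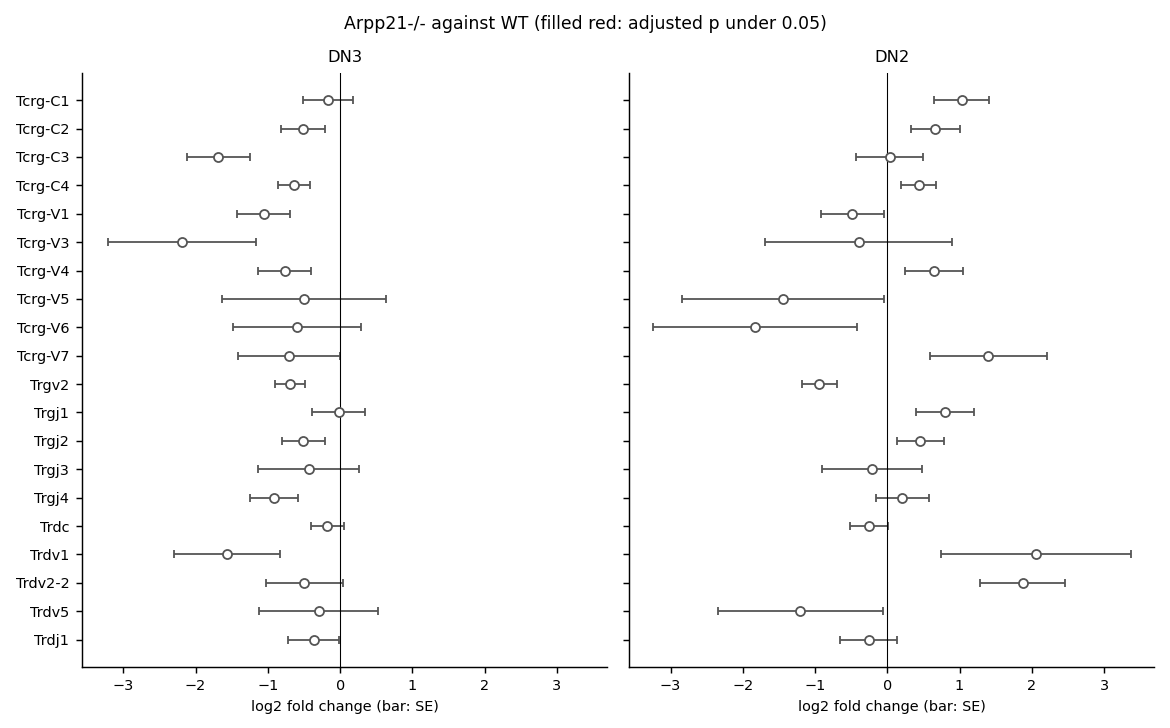
log2 change of Arpp21-/- against WT in DN3 (left) and DN2 (right) for the 20 members tested. Points are edgeR estimates and bars their SE, and no point is filled since none passed an adjusted p of 0.05. In DN3 all points lie left of 0, and in DN2 they lie on both sides.

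In DN2 no member was called and 3 had an unadjusted p under 0.05, as 0% of all genes were called and 2020 had an unadjusted p under 0.05. Of the 20, 9 were lower and 11 higher by their estimates, and 2 (Trgv2 and Tcrg-V5) had both Arpp21-/- libraries under the WT range and 3 had both over it, beside 8.28% and 7.52% of all genes tested. This split of signs depended on the processing. With limma-trend on log2(TPM + 1) 18 of 23 members were lower, where the median of all genes was -0.45. Without Arpp21-/- replicate 2 edgeR gave 12 lower and 10 higher of 22. Trgv2 had 6.64 and 5.77 CPM in DN2 Arpp21-/- replicates 1 and 2 against 12.2, 11.7 and 11.8 in WT, with no overlap, a log2 change of -0.94 (SE 0.239) and an unadjusted p of 0.00272 by edgeR, with 0.336 as its adjusted p. DESeq2 called it, beside 0.276% of all genes. It was the 1 member whose Arpp21-/- libraries all lay under the WT range at both stages, beside 0.958% of all genes tested. Per 100 counts of Tcrg-C2 it had 0.699 and 0.252 counts in DN2 Arpp21-/-, under the WT values at this stage as well. It held 62.1% of the γ V counts (Wilson 95% interval 56.2% to 67.7%) in replicate 1 and 30.8% (27.5% to 34.3%) in replicate 2, intervals that cover counting error only. Trdv2-2 had 1.93 and 7.64 CPM in DN2 Arpp21-/-, both above WT, with a log2 change of 1.87 (SE 0.591, unadjusted p = 0.00981 by edgeR) that was 0.58 without replicate 2, the library that stood apart. Tcrg-C1 was likewise above WT in both (1.03, SE 0.380), where the median of genes of 500 to 1000 bases was 1.03, and it was 0.26 without replicate 2. Without replicate 1, where the spread of the remaining library is taken from the other groups, 10 of 22 members were called, as were 46.2% of all genes, so this says nothing particular to the members, and without replicate 2 none was.

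A difference between the stages in the effect of genotype, tested as the interaction, was called for no member and for no gene, with 7 of 20 members and 373 genes at an unadjusted p under 0.05 by edgeR. For Trgv2 the log2 change in DN3 minus that in DN2 was 0.25 (SE 0.310, unadjusted p = 0.44 by edgeR). The interaction of the 4 γ C genes was between -1.72 and -1.08, all with an unadjusted p under 0.05 by edgeR and an adjusted p of 0.964. Over the tested genes shorter than 500 bases its median was -0.69, and that over genes of 500 to 1000 bases, which holds the γ C genes, -0.71.

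None of the genes that act with the receptor was called between genotypes at either stage. In DN3 the Rag1 values were 904, 867 and 973 CPM for WT against 413, 335 and 236 CPM for Arpp21-/-, all lower, and those of Rag2 149.9, 143 and 134 against 182, 169 and 200.3 CPM, all higher. Cd3e and Runx1 were also below WT in every DN3 Arpp21-/- library, and Dntt, Trbc1 and Trbc2 above. Of the 10 γδ lineage genes tested, 4 had all 3 DN3 Arpp21-/- libraries under the WT range, where 5.57% of all genes did. They were 5830411N06Rik (204, 90.5 and 101.5 CPM in WT and 59.2, 32.4 and 25.7 in Arpp21-/-), Cd163l1 (58.5, 23.2 and 30.02 and 10.9, 5.28 and 3.55), both scavenger receptors of γδ T cells, Etv5 (39.4, 39.5 and 40.4 and 27.6, 26.6 and 13.6) and the kinase Blk (26.4, 30.6 and 30.6 and 24.4, 19.4 and 24.4). The summed level of the 8 mature γδ markers was 59.3 to 105 CPM in DN3 Arpp21-/- against 149 to 294 in DN3 WT, with Zbtb16, Il23r and Ccr6 at or under 0.242 CPM in every DN3 library. Its part in the lower γ and δ values of DN3 Arpp21-/- was not tested. Of the 7 Trav genes with a δ name 1 was below WT in every DN3 Arpp21-/- library, Trav15d-1-dv6d-1 (1.72, 0.980 and 1.94 CPM). Trbc1 and Trbc2, the β constant genes, had 764, 729 and 1138 CPM and 1324, 1332 and 2090.1 CPM in DN3 Arpp21-/- against 638, 661 and 635 CPM and 1219, 1268 and 1203 CPM in WT, where the median log2 change of genes of 500 to 1000 bases was 0.35.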

How the data were processed

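RNA of sorted DN2 and DN3 thymocytes was sequenced in 11 libraries, grouped by stage and genotype from the labels. The authors pseudoaligned trimmed read pairs to the Ensembl 101 transcripts of GRCm38 with kallisto 0.46. The deposited estimated counts are expected counts of pairs per transcript without normalization, the deposited TPM correct for length, and effective lengths were deposited in bases. Counts were summed per gene with GENCODE M21 (116728 of 119414 transcripts matched by identifier, and the rest held 0.933% to 1.07% of counts) and rounded. edgeR 4.0.16 in R 4.3.3 (TMM, filterByExpr with a minimum count of 10 and total of 15, glmQLFit and glmQLFTest, two-sided) was fitted to 4 groups, with SE as the absolute log2 change over the square root of F, which is approximate. The fit was tested on simulated data. Depth was 14531762 to 63109504 estimated counts, with a median of 21501831.

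Members with at least 10 counts in at least 2 libraries are described singly, ordered by role, and other genes come from fixed lists. The members and lists were chosen with earlier results of these data known. Residuals of same-numbered libraries over 8584 genes correlated at 0.70, 0.27 and 0.57 between the WT stages and at 0.75 and -0.78 between the Arpp21-/- stages. Between genotypes they correlated at 0.49, -0.32 and 0.17 in DN3 and at 0.29 and 0.34 in DN2. The main fit had no block and treated all libraries as unpaired. The replicate number as a block joins same-numbered libraries of all 4 groups, and with genotype added it joins those of 1 genotype. The alternatives tried were DESeq2 1.42.0, its size factors, no filter, at least 10 CPM in 2 libraries, an offset for effective length, limma-trend from limma 3.58.1 on TPM with a pseudocount of 1 or 0.1 before log2 (TPM of at least 1 in 2 libraries), voom with sample quality weights, replicate blocks, each library left out, both libraries that stand apart left out, 1 stage alone and an adjusted p under 0.1. Python 3.11.15 with pandas 2.3.3 and scipy 1.17.1 made the tables, and matplotlib 3.10.9 the plots.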

Additional observations from a re-analysis of the deposited data

Results flagged for a closer look

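For Tcrg-C4 and Trdv2-2 both DN2 Arpp21-/- libraries lay above the WT range and all 3 DN3 Arpp21-/- libraries lay under it. Tcrg-C4 had 238, 219 and 272 CPM in DN2 WT and 336 and 322 in DN2 Arpp21-/-, with the DN3 values given above. Its log2 changes were 0.43 in DN2 and -0.64 in DN3. Genes of 500 to 1000 bases, which include Tcrg-C4, had medians of 1.03 and 0.35, so it lay under that median at both stages. The difference of the log2 changes, DN3 minus DN2, was -1.08 (SE 0.332, unadjusted p = 0.00864 and adjusted p = 0.964 by edgeR), where those genes had a median of -0.71. The part of length was not tested. By TPM the DN2 difference of Tcrg-C4 was -0.25, still above the median of all genes on that scale, -0.45 with log2(TPM + 1) and -0.62 with log2(TPM + 0.1). For Trdv2-2 the difference was -2.37 (SE 0.795, unadjusted p = 0.0135 and adjusted p = 0.964 by edgeR), which was -1.09 without DN2 Arpp21-/- replicate 2, the library that stood apart. The log2 changes of Trdv2-2 were 1.87 in DN2 and -0.50 in DN3, where genes under 500 bases had medians of 0.92 and 0.19. Its counts cannot be told apart from those of Trdv2-1 and Gm43647 where they share sequence.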

How the results depend on the processing

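In the WT stage comparison 12 members were called, and 7 with at least 10 CPM in at least 2 libraries, a filter under which fewer members are tested, 4 with genotype and number together as a block, and 4 to 14 with each library left out. In the Arpp21-/- stage comparison 10 were called, and 4 with voom and quality weights, 3 with that block and 7 to 15 with each library left out. Between genotypes in DN3 none was called except 7 with voom and quality weights, and 0 with each library left out. In DN2 none was called except 1 with DESeq2, and 0 to 10 with each library left out, where the 10 came without Arpp21-/- replicate 1, an omission that calls 46.2% of all genes. In the interaction the range was 0 to 8, with the 8 from the same omission, which calls 25.0% of all genes there. The replicate number alone as a block moved no count of members by over 1.5 times. Calls over all genes in the WT stage comparison were 562, and 216 (genotype and number as a block) to 2326 over the alternatives. With each library left out they were 243 to 1080. In the Arpp21-/- stage comparison they were 595, with 120 under that block and 140 with voom and quality weights. Why these counts moved was not tested.

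Reversed signs were few among the values followed, which between genotypes were only those of members whose libraries did not overlap. Over all members tested, signs in DN2 depended on the scale. With limma-trend on log2(TPM + 1) 18 of 23 had a negative log2 change between genotypes in DN2, beside 9 of 20 in the main fit. TPM, which moves the median of all genes in the WT stage comparison to 0.13 with log2(TPM + 1) and 0.15 with log2(TPM + 0.1), gave Tcrg-C2 a log2 change of 0.032 and Trgj4 one of 0.026, both under that median, and Trgj4 had -0.19 to 0.043 with each library left out, above 0 without DN2 WT replicate 1 or 3 or DN3 WT replicate 2. Trdv2-2 had -0.44 between the Arpp21-/- stages without DN2 Arpp21-/- replicate 1, and Tcrg-C4 had -0.25 between genotypes in DN2 by TPM, above the all-gene medians of -0.45 and -0.62 on that scale. The values followed were those of single genes, γ V shares and summed levels. Of these 1285 alternative values 1119 kept direction and side of the threshold, 86 lost a call, 47 gained one, 23 moved by over 1 SD and 10 reversed. Precision is limited for Tcrg-V5, Tcrg-V6, Trdv2-1, Trdv3 and Trdv4, none of which reached 30 counts in a library, and by having 2 DN2 Arpp21-/- libraries.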
